A study of Caenorhabditis elegans with 10 samples.

Results

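Messenger RNA of whole Caenorhabditis elegans carrying daf-2(e1370) was compared with that of the wild type N2, both kept at 15 °C, the permissive temperature of this daf-2 allele. The comparison used 2 of the 10 samples of the study, 1 library per strain, and covered 14760 genes. Each group was a semi-synchronised population collected around the L4 and preadult stages, with about 3000 worms per sample, and poly(A) RNA was sequenced as stranded paired-end libraries. The other strains at 15 °C were the double mutants daf-16(mu86); daf-2(e1370) and daf-2(e1370); math-33(tm3561) and the single mutant math-33(tm3561), and all 5 strains were also sampled after 22 hr at 25 °C from the L3 or L4 stage. The other 8 libraries serve to show where a level stands without daf-16 or math-33 and whether the difference between daf-2 and N2 recurs.

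The receptor for insulin-like peptides in the worm is DAF-2, related to the insulin and IGF-1 receptors. When insulin-like peptides activate it, a kinase cascade through AGE-1, PDK-1 and AKT keeps the FOXO transcription factor DAF-16 in the cytoplasm, and reduced signalling lets DAF-16 enter the nucleus and change genes of stress resistance, metabolism, immunity and dauer formation. Temperature-sensitive daf-2 alleles grow as fertile adults at the permissive temperature and form dauer larvae when young larvae are kept at the restrictive one. MATH-33 is a deubiquitylating enzyme. The comparison at 15 °C addresses how far the transcriptome of the mutant differs from the wild type at the permissive temperature.

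The daf-2 library held 35.2 M reads and the N2 library 31.8 M, as recovered from the steps between low FPKM values (fragments per kilobase, scaled to library size). The other 8 libraries held 25.2 to 31.2 M. With 1 library per group a difference has no replicate check, no p-value was computed, and the 95% intervals given with folds cover counting error only. A gene was counted as higher or lower when log2(FPKM + 1) differed by at least 1 unit, on which weakly expressed genes appear less changed than they are.

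The labels could be checked in part. The math-33 transcript was 78.5 FPKM in N2 and 71.3 in daf-2 at 15 °C, against 14.4 and 15.9 in the libraries labelled daf-2; math-33 and math-33. The e1370 allele is a point mutation that a transcript level does not check: the daf-2 transcript stood at 23.4 FPKM in N2 and 31.5 in daf-2, with 21.1 to 26.3 in the other 15 °C libraries. For daf-16 only the row of highest mean FPKM, of 906 bases, was examined. It was at 101 FPKM in N2, 135 in daf-2 and 182 in the library labelled daf-16; daf-2, so no loss of reads was seen in that row. Any other daf-16 row was not looked at. The labels used here do not say where mu86 lies relative to that row, and the row therefore does not check that label.

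The daf-2 library at 15 °C stood apart from the other 5 libraries that carry daf-2 in a group of cuticle genes. There were 23 genes with at least 5 FPKM in all 5 of those libraries and at least 4 times the highest level of the N2 and math-33 libraries, a pattern chosen after values were seen. They included 14 col collagens, 3 grl genes of the hedgehog-related family, and cut-1, a cuticlin of the dauer cuticle. Their median was 0.069 FPKM in N2 and 0.453 in daf-2 at 15 °C, against 53.9 in daf-16; daf-2, 66.1 in daf-2; math-33 at the same temperature and 87.9 in daf-2 at 25 °C. The level in daf-2 at 15 °C was below all 5 other daf-2 libraries for 23 of the 23 genes, and above all 4 N2 and math-33 libraries for 17. The collagen col-36 stood at 0.581 FPKM in N2 and 2.65 in daf-2, but at 384 in daf-16; daf-2 at 15 °C, where daf-2; math-33 had 111. The grl-23 gene stood at 0.077 and 1.29 FPKM in N2 and daf-2, and at 112 and 151 in the same double mutants. The collagen col-2, known from the dauer cuticle, stood at 0.174 FPKM in N2, 0.629 in daf-2, 88.4 in daf-16; daf-2, then 99.9 in daf-2; math-33. No transcript checks the daf-2 label of this library. Its math-33 transcript, at 71.3 FPKM, was near that of the strains with math-33. In F56A4.3 and bgal-2, at 0.362 and 1.48 FPKM, it was low, as were daf-2 at 25 °C and daf-16; daf-2. At 15 °C daf-2; math-33, which carries daf-2 too, was at 18.2 and 10.8 FPKM of them, and N2 at 25.8 and 10.6. Both genes were picked with the values of this library included. Whether the library was staged differently or exchanged with another library was not tested. Every difference between daf-2 and N2 at 15 °C given here rests on this library.

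**Figure D1:**
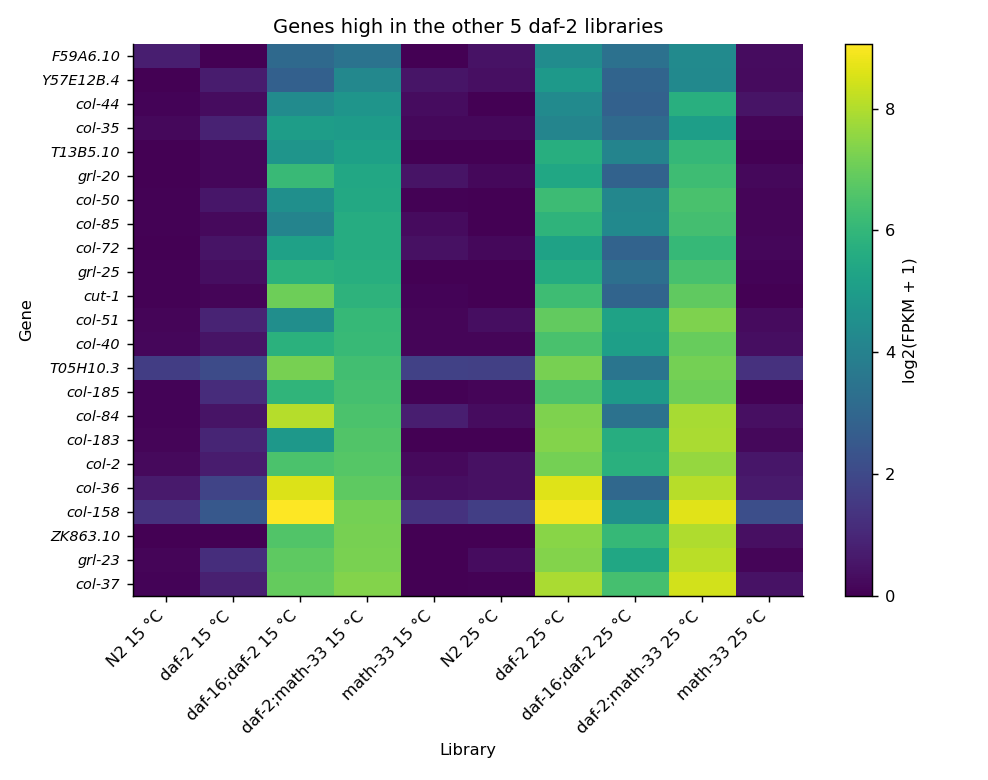
Level of the 23 genes on a log2(FPKM + 1) colour scale, one row per gene and one column per library. The column of daf-2 at 15 °C is nearly as dark as those of N2 and math-33 (median 0.453 FPKM), whereas the other 5 daf-2 libraries have medians from 16.07 to 123.6 FPKM.

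Few genes differed between daf-2 and N2 at 15 °C. Higher in daf-2 by at least 1 log2 unit were 267 genes, 1.81% of those compared, and 239 genes (1.62%) were lower. The median difference of all genes was -0.0040 on the log2 scale. The 506 genes were the fewest for any pair among the 5 libraries at 15 °C, where the other 9 pairs gave 650 to 2665. The same strains at 25 °C differed in 2420 genes. Summed levels of the vitellogenin (yolk protein) genes at 15 °C were 1791 FPKM in N2 and 1911 in daf-2. They were 2306 FPKM in daf-16; daf-2, 3468 in daf-2; math-33 and 5976 in math-33. Major sperm protein genes summed to 405 and 319 FPKM in N2 and daf-2, and to 440, 1177 and 2111 in the same order. Whether developmental stage adds to the counts of these pairs was not tested.

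Many of these genes were weakly expressed. Of the 267 higher genes, 129 (48.3%) stayed under 5 FPKM in both libraries and 89 reached 10 FPKM. Of the 239 lower genes, 164 (68.6%) stayed under 5 FPKM and 40 reached 10, and of all genes 33.7% stayed under 5. The counting interval of the fold excluded 1 for 254 of the higher and 223 of the lower genes, and for 6249 of all genes. Their rows were short, with a median of 561 bases for the higher and 478 for the lower genes against 1017 for all genes. Chromosome V carried 31.1% of the higher and 26.8% of the lower genes and 20.1% of all genes compared, whereas chromosome III carried 7.87%, 9.21% and 15.4%.

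**Figure D2:**
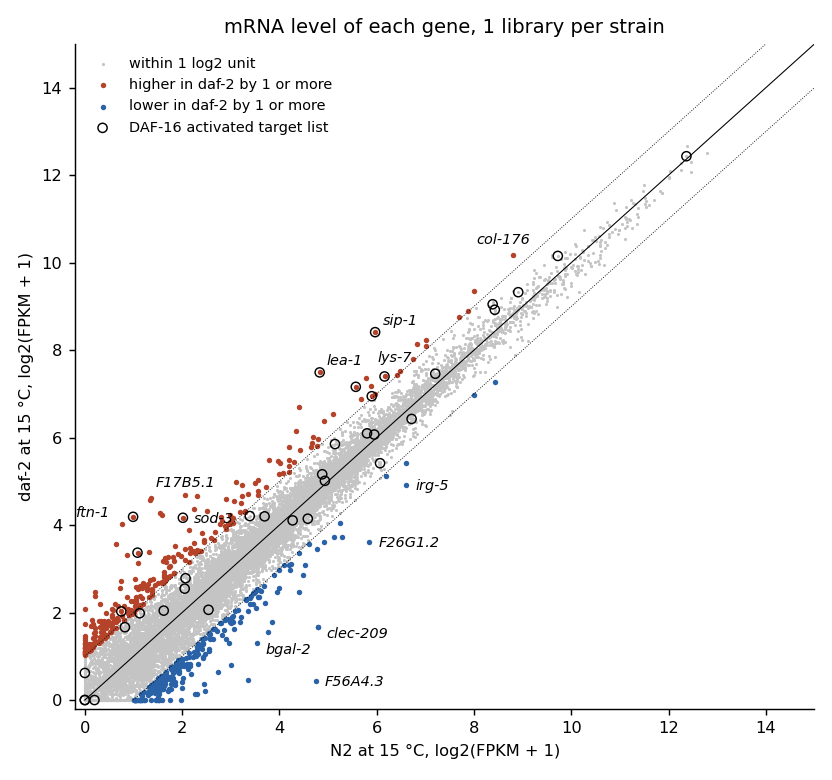
Level of each of 14760 genes in N2 (horizontal) and daf-2 (vertical) at 15 °C, both as log2(FPKM + 1), with dotted lines 1 unit from equality. Red points are the 267 higher genes, blue points the 239 lower genes, and open circles the DAF-16 activated targets, 9 of which lie above the upper line and none below the lower one.

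Of the genes known to be activated by DAF-16, several were higher in daf-2 at 15 °C. Of 36 such genes compared, 9 were higher by at least 1 log2 unit and 0 were lower, where the background is 1.81% of genes higher and 1.62% lower. The list's median difference was 0.49, and 28 of the 36 genes were above 0 and 6 below. The list was drawn up with earlier results of these data known, so its direction is not independent evidence.

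The largest difference on the list was that of ftn-1, the iron-storage protein ferritin (chromosome V, 7546526 to 7547544, ce10). Its level was 0.989 FPKM in N2 and 17.2 in daf-2, a 17.4-fold difference (95% counting interval 8.66 to 41.2). The daf-16; daf-2 library, at 1.70 FPKM, was close to N2, and daf-2; math-33 and math-33 stood at 9.50 and 11.9. At 25 °C ftn-1 was at 2.98 FPKM in N2 and 221 in daf-2. The metallothionein gene mtl-1, which binds metal ions, had 1.12 FPKM in N2 and 9.34 in daf-2, an 8.35-fold difference (3.0 to 32.3). It stood at 1.05 FPKM in daf-16; daf-2, 8.06 in daf-2; math-33 and 10.8 in math-33, the highest of the 5 at 15 °C, and at 2.89 against 554 in N2 and daf-2 at 25 °C.

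The genes lea-1 and sip-1, which act in desiccation tolerance and protein protection, were more abundant. The late embryogenesis abundant protein gene lea-1 (chromosome V, 10021603 to 10023069) was at 27.4 FPKM in N2 and 179 in daf-2, 6.53-fold higher (5.96 to 7.16). It was at 13.3 FPKM in daf-16; daf-2, 23.2 in daf-2; math-33 and 43.5 in math-33, so that the daf-2 library was the highest of the 5 at 15 °C. The small heat-shock protein gene sip-1 (chromosome III, 10506074 to 10506609) was at 61.6 FPKM in N2 and 339 in daf-2, 5.51-fold higher (4.995 to 6.09). It stood at 19.8 FPKM in daf-16; daf-2, 50.02 in daf-2; math-33 and 142.7 in math-33. Of the 9 small heat-shock protein genes compared, only sip-1 passed 1 log2 unit at 15 °C. Another of them, hsp-12.3, was at 0.770 and 2.17 FPKM, and at 25 °C at 0.993 FPKM in N2 and 180 in daf-2.

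The mitochondrial superoxide dismutase gene sod-3, a standard reporter of DAF-16 activity, was at 3.04 FPKM in N2 and 16.97 in daf-2, 5.57-fold higher (3.85 to 8.54). It stood at 2.18 FPKM in daf-16; daf-2, 5.57 in daf-2; math-33 and 4.02 in math-33, all well below daf-2. At 25 °C it was at 5.15 FPKM in N2 and 153 in daf-2. Of the 26 antioxidant enzyme genes compared it was the only one past 1 log2 unit. The alcohol dehydrogenase gene adh-1, named sodh-1 in the table, was at 46.5 FPKM in N2 and 142 in daf-2, 3.06-fold higher (2.82 to 3.32). Unlike sod-3 it was as high in daf-2; math-33 (135 FPKM) and math-33 (122), and at N2 level in daf-16; daf-2 (46.96).

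The lysozyme gene lys-7, which acts in defence against bacteria, was at 70.6 FPKM in N2 and 168 in daf-2, 2.38-fold higher (2.21 to 2.56), with 58.7 in daf-16; daf-2, 78.5 in daf-2; math-33 and 31.5 in math-33. The noncoding RNA tts-1 was at 58.7 FPKM in N2 and 122 in daf-2, 2.09-fold higher (1.90 to 2.30). It was higher still in daf-2; math-33 (401 FPKM) and math-33 (297), so daf-2 was not its highest library at 15 °C. At 25 °C tts-1 reached 4248 FPKM in daf-2 against 34.4 in N2. The linker histone gene hil-1 was at 0.681 and 3.07 FPKM, 4.51-fold higher (1.91 to 10.4), and was listed at 0 in daf-16; daf-2.

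Other targets of the list differed by less than 1 log2 unit. The desaturase gene fat-5 was at 9.49 FPKM in N2 and 17.5 in daf-2, the gluconeogenic gene pck-1 at 147 and 175, and the glyoxylate-cycle gene icl-1 at 333 and 529. The catalase genes ctl-1 and ctl-2 were at 3.15 and 54.7 FPKM in N2 and 4.84 and 67.5 in daf-2. Both glyceraldehyde-3-phosphate dehydrogenase genes gpd-2 and gpd-3 had small positive differences of 0.43 and 0.41 log2 units. The methionine sulfoxide reductase gene msra-1 had the most negative difference, at 66.2 FPKM in N2 and 41.7 in daf-2. The gene dod-3 was listed at 0 in N2 and at 0.536 FPKM in daf-2, but reached 25.7 FPKM in daf-2 at 25 °C.

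**Figure D3:**
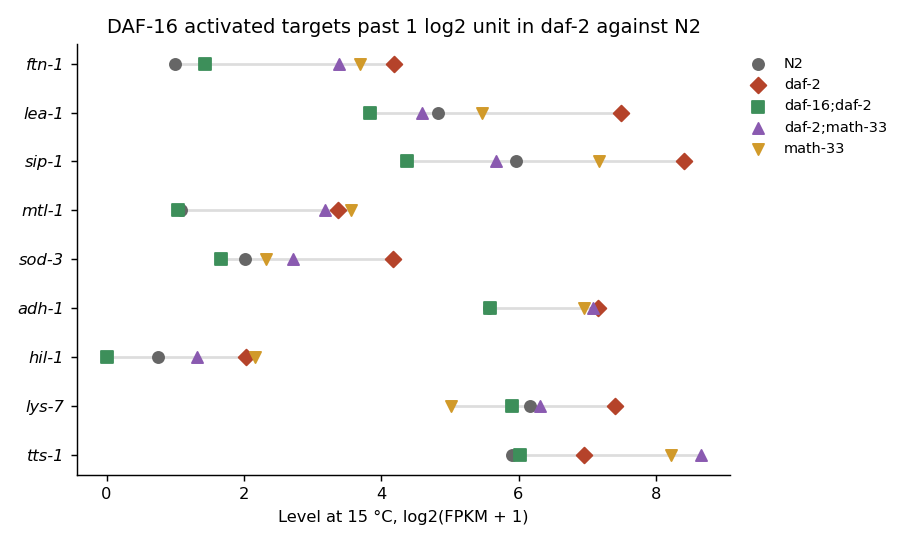
Level of the 9 DAF-16 activated targets past 1 log2 unit, one row per gene, in the 5 libraries at 15 °C as log2(FPKM + 1). The daf-2 library (diamonds) lies right of N2 (circles) for each gene, the daf-16; daf-2 library (squares) lies near or left of N2, and math-33 (inverted triangles) lies right of daf-2 for mtl-1, hil-1 and tts-1.

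Genes known to be repressed when DAF-16 is active were less uniform. Of 20 compared, 3 (15.0%) were lower by at least 1 log2 unit and 0 higher, against 1.62% and 1.81% of all genes, and the list's median was 0.0087, or -0.035 after quantile normalisation. The infection-response gene irg-5, F35E12.5 in the table, was at 96.7 FPKM in N2 and 29.4 in daf-2, 3.29-fold lower (2.98 to 3.64). It was at 211 FPKM in daf-16; daf-2, 98.5 in daf-2; math-33 and 59.1 in math-33, so the daf-2 library was the lowest of the 5 at 15 °C, and at 25 °C it was at 349 FPKM in N2 and 17.5 in daf-2. The gene dod-24, also of the infection response, was at 12.01 and 3.62 FPKM, 3.32-fold lower (2.51 to 4.41). The third gene, dod-21, was at 1.05 FPKM in N2 and listed at 0 in daf-2, at least 6.65-fold lower against a floor of 3 read pairs, with a lower 95% counting limit of 4.87. Of the others, dod-17 was at 10.3 and 8.60 FPKM, and dod-22 at 4.64 and 8.88. Between daf-2; math-33 and math-33 at 15 °C, 5 of the 20 were higher and 1 lower, with a median of 0.42. There 2.66% of all genes were higher and 3.4% lower. Between daf-2 and N2 at 25 °C, 0 were higher and 8 lower, with a median of -0.51, against 8.42% and 7.97% of all genes.

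Components of the insulin pathway itself differed little in transcript level. Of 23 genes of the receptor and its intracellular pathway compared, 0 passed 1 log2 unit in either direction, and the median was 0.018. With 1.81% of all genes higher and 1.62% lower, a list of this size would hold few such genes in any case. The receptor gene daf-2 and daf-16 had differences of 0.41 and 0.42, and the kinase genes akt-1, akt-2 and pdk-1 of 0.11, 0.51 and 0.38. The kinase gene age-1 was at 14.5 FPKM in N2 and 14.3 in daf-2.

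Ligands of the pathway showed larger differences. Among 27 insulin-like peptide genes compared, 6 were higher in daf-2 and 0 lower, against backgrounds of 1.81 and 1.62%, with a list median of 0.24. That median was 0.017 with no filter on low values and 0.50 where 5 FPKM in 2 libraries was required. The most abundant was ins-27, at 84.4 FPKM in N2 and 172 in daf-2, 2.03-fold higher (1.78 to 2.32), with 51.4 in daf-16; daf-2, 73.5 in daf-2; math-33 and 36.2 in math-33. The gene ins-35 was at 29.1 FPKM in N2 and 82.1 in daf-2, 2.82-fold higher (2.30 to 3.44). In contrast to ins-27, ins-35 was not lower than in daf-2 in the double mutants: it stood at 94.3 FPKM in daf-16; daf-2, and daf-2; math-33 had 218. The genes ins-29 and ins-30 were at 26.5 and 6.90 FPKM in N2 and 55.2 and 15.7 in daf-2. The remaining 2, ins-23 and ins-24, stayed under 6 FPKM in both libraries, and ins-23 was listed at 0 in N2 and at 3.24 FPKM in daf-2, at least 3.91-fold higher against a floor of 3 read pairs, with a lower 95% counting limit of 2.75. The genes ins-24, ins-27, ins-29 and ins-30 lie on chromosome I between 14018796 and 14036028.

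The 15 genes with the largest increases included ftn-1, lea-1, mtl-1 and sip-1. At the top were pud-4 (F15E11.12) and pud-3 (F15E11.15), near-identical neighbouring genes named for proteins that increase in daf-2 mutants, on chromosome V between 2324633 and 2327206. The pud-3 row was at 1.58 FPKM in N2 and 23.5 in daf-2, 14.9-fold higher (8.51 to 28.4), with 10.9 in daf-16; daf-2, 11.6 in daf-2; math-33 and 8.52 in math-33. The pud-4 row was at 0.692 and 15.2 FPKM, and reads may be split between the copies. In N2 and daf-2 at 25 °C pud-3 was at 36.3 and 790 FPKM.

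F17B5.1 was at 1.54 FPKM in N2 and 22.96 in daf-2, 14.9-fold higher (11.4 to 19.8). It stood at 0.610 FPKM in daf-16; daf-2, 3.29 in daf-2; math-33 and 3.33 in math-33, so daf-2 was the only library above 4 FPKM at 15 °C. F45D11.1 was likewise highest in daf-2, with 0.555 FPKM in N2, 10.9 in daf-2 and 0.764 to 2.17 in the other 3 libraries. The gene icmt-1 (F21F3.3) was at 1.92 and 18.4 FPKM, 9.58-fold higher (6.43 to 14.8), but was highest in math-33, at 23.3. The methyltransferase-family gene comt-3 was at 20.1 FPKM in N2 and 104 in daf-2, 5.16-fold higher (4.48 to 6.01). It was as high in daf-2; math-33 (105 FPKM) and higher in daf-16; daf-2 (156), unlike the targets above.

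The 15 genes with the largest decreases were of several kinds. F56A4.3 (chromosome V, 2453426 to 2456083) was at 25.8 FPKM in N2 and 0.362 in daf-2, 129 read pairs against 2 (ratio 71.4, 19.4 to 596). It was listed at 0 in daf-16; daf-2, but was at 18.2 FPKM in daf-2; math-33 and 11.7 in math-33. At 25 °C the same split appeared, with 2.15 FPKM in daf-2 and 0.214 in daf-16; daf-2 and 25.96, 20.7 and 9.07 in N2, daf-2; math-33 and math-33. The gene bgal-2 (H22K11.2, chromosome X, 6784395 to 6787225), a putative beta-galactosidase, had that split too, with 10.6 FPKM in N2 and 1.48 in daf-2, 7.15-fold lower (5.28 to 9.81). It stood at 1.44 FPKM in daf-16; daf-2, 10.8 in daf-2; math-33 and 9.68 in math-33. These were the 2 genes in which all 4 libraries of daf-2 and daf-16; daf-2 were at least 4 times below all 6 others, with 5 FPKM or more there.

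The C-type lectin gene clec-209 was at 26.6 FPKM in N2 and 2.18 in daf-2, 12.2-fold lower (8.59 to 17.9). F56A4.2 occupies the same coordinates on chromosome V with nearly equal values in all libraries, so both entries rest on the same reads. Their level was 4.09 FPKM in daf-16; daf-2, 33.1 in daf-2; math-33 and 18.5 in math-33. F26G1.2 was the most abundant of the 15, at 56.8 FPKM in N2 and 11.3 in daf-2, 5.04-fold lower (3.89 to 6.64). The other 3 libraries at 15 °C, at 55.6 to 57.1 FPKM, were close to N2, and daf-2 alone was low. At 25 °C all 5 libraries had between 7.82 and 21.1 FPKM of F26G1.2.

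The lectin gene clec-86 was at 12.7 FPKM in N2 and 1.94 in daf-2, 6.52-fold lower (3.87 to 11.6), and between 16.6 and 26.8 in the other 15 °C libraries. K01D12.1 was at 13.3 and 2.45 FPKM, 5.44-fold lower (3.83 to 7.72), with 13.1 in daf-16; daf-2 but 2.88 in daf-2; math-33 and 1.27 in math-33. The gene gtnt-25 (F36F12.1) had the same order, with 5.67 FPKM in N2, 0.550 in daf-2, 5.01 in daf-16; daf-2, and 1.38 and 0.512 in both strains without math-33. The other 7 genes, among them nspc-10, nspc-3 and Y64H9A.2, stayed under 10 FPKM in both libraries and rest on 4 or fewer read pairs in daf-2.

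Immune genes went both ways, and their shares are to be read against 1.81% of all genes higher and 1.62% lower. Of 34 lysozyme and saposin-like genes, 3 (8.82%) were higher and 0 lower: lys-7, lys-2 and spp-2. The gene lys-2 was at 254 FPKM in N2 and 652 in daf-2, 2.57-fold higher (2.47 to 2.67), and at 561, 509 and 217 in daf-16; daf-2, daf-2; math-33 and math-33. The saposin-like gene spp-2 was at 88.7 and 184.03 FPKM. Of 121 C-type lectin genes, carbohydrate-binding proteins often secreted by the gut, 8 (6.61%) were higher and 8 lower, with a median of 0. On the higher side clec-52 was at 7.67 FPKM in N2 and 30.5 in daf-2, while clec-48 was at 33.4 and 92.6. The level of clec-52 was 14.96 FPKM in daf-16; daf-2, 33.1 in daf-2; math-33 and 38.1 in math-33, so daf-2 was not its highest library at 15 °C. On the lower side, besides clec-209 and clec-86, clec-206 was at 20.04 and 4.57 FPKM and clec-10 at 21.5 and 6.26. Of 31 antimicrobial peptide and infection-response genes, 4 (12.9%) were higher and 3 (9.68%) lower, among them fip-6 at 17.3 and 43.9 FPKM and irg-6 (C32H11.1) at 2.42 and 0.288.

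Metabolic and detoxification lists held 0 to 2 higher genes each and none lower, against 1.81% and 1.62% of all genes. Among 35 lipase and fat-breakdown genes, the lysosomal lipase gene lipl-1 was at 4.67 FPKM in N2 and 19.1 in daf-2, 4.09-fold higher (3.25 to 5.20), and the acyl-CoA synthetase gene acs-2 at 6.07 and 16.19, which makes 5.71% of the list. Among 17 genes of methionine and phosphatidylcholine synthesis, sams-5, an S-adenosylmethionine synthetase, was the one gene past 1 log2 unit, at 10.8 and 26.6 FPKM. Of 61 cytochrome P450 genes 0 differed by 1 log2 unit, although 42 were above 0 and the median was 0.19; it was 0.074 with a pseudocount of 5 and 0.089 where 5 FPKM in 2 libraries was required. Glutathione transferases and UDP-glucuronosyltransferases had 2 higher genes each, of 38 (5.26%) and 62 (3.23%), and none lower; ugt-29 was at 17.4 and 54.3 FPKM and gst-29 at 0.502 and 2.45. In the gluconeogenesis, glyoxylate-cycle and glycolysis list 0 of 25 genes and in the desaturase and elongase list 0 of 20 genes passed 1 log2 unit. The metal-handling list, with 29 genes, had only ftn-1 and mtl-1 (6.90%).

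Of the 41 lists, 18 held no gene past 1 log2 unit. Among them were the cytosolic chaperones, the unfolded protein response of the endoplasmic reticulum, the mitochondrial stress response, autophagy, muscle and intestine. With 1.81% of all genes higher and 1.62% lower, a short list can be without such a gene at the background rate, so this does not single out a list. The nuclear hormone receptors, 189 genes, had 0 higher and 2 lower (1.06%, against 1.62% of all genes), nhr-63 and nhr-148, both under 3 FPKM. Of 115 neuron genes 3 (2.61%) were higher and 1 (0.870%) lower, shares near the 1.81% and 1.62% of all genes. All 4 were neuropeptide genes: flp-10 was at 10.8 FPKM in N2 and 24.6 in daf-2, while flp-34 (R09A1.5) was at 7.86 and 3.19. The higher genes nlp-78 (C16D2.2) and nlp-63 (F33H1.6) rest on 14 and 8 read pairs in daf-2 against 4 and 1 in N2. Their counting intervals of the fold, 0.992 to 13.2 and 0.968 to 320, included 1. The cytosolic ribosomal protein genes had 0 of 75 past 1 log2 unit, but 73 were below 0 against 50.6% of all genes, with a median of -0.31 and a summed level of 116009 FPKM in N2 and 97701 in daf-2. The 31 proteasome subunit genes had a median of -0.13, with 28 below 0.

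**Figure D4:**
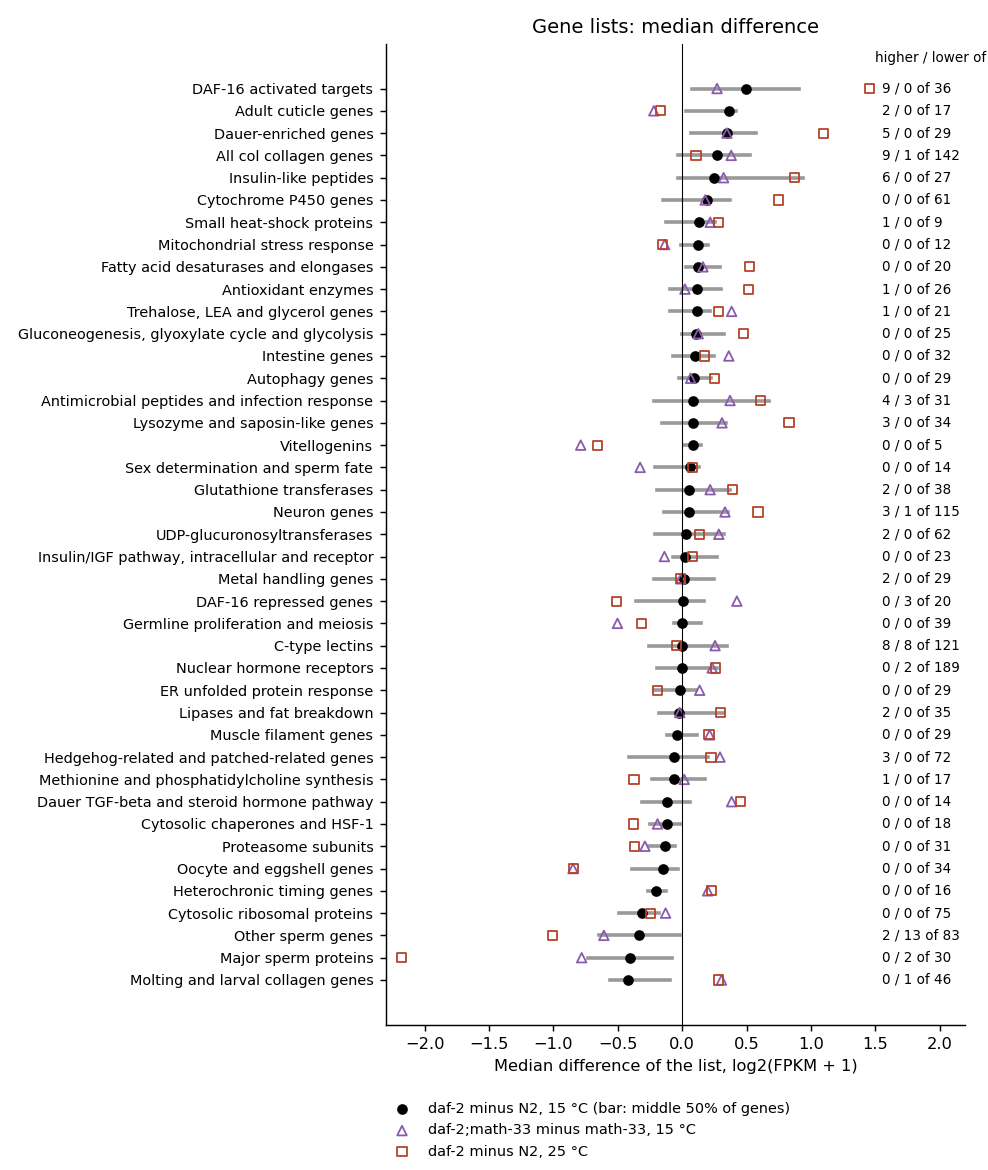
Median difference of each of the 41 gene lists on the log2(FPKM + 1) scale. Black points with grey bars give the median and the middle 50% of genes for daf-2 minus N2 at 15 °C, triangles the medians in the math-33 background and squares those at 25 °C; DAF-16 activated targets have the highest median at 15 °C (0.49) and molting and larval collagens the lowest (-0.42).

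Few single genes of the stage-dependent lists passed 1 log2 unit, but summed levels were not equal in the 2 libraries, and their part in the results above was not tested. Of 46 molting and larval collagen genes, 37 were below 0, with a median of -0.42 and a summed level of 11635 FPKM in N2 and 9084 in daf-2. The cuticle collagen sqt-3, at 257 and 123.8 FPKM, was the one gene lower by 1 log2 unit, 2.17% of the list against 1.62% of all genes. Of 17 adult cuticle genes 13 were above 0, and 2 (11.8%) were higher by 1 log2 unit, against 1.81% of all genes. Summed levels of the list were 2841 FPKM in N2 and 3959 in daf-2. The adult collagen col-176 was at 445 and 1154 FPKM, 2.59-fold higher (2.52 to 2.67), and col-120 at 24.8 and 63.5. In daf-16; daf-2, daf-2; math-33 and math-33 at 15 °C, col-176 was at 448, 830 and 339 FPKM, below daf-2. In the same libraries col-120 was at 101, 98.1 and 167 FPKM, so N2 was its lowest library at 15 °C and daf-2 was not its highest. Over all 142 col genes, 9 (6.34%) were higher and 1 (0.704%) lower, against 1.81% and 1.62% of all genes. The higher ones included col-137, at 3.74 and 19.7 FPKM, with 33.5 in daf-16; daf-2, 39.2 in daf-2; math-33 and 37.7 in math-33 at 15 °C. They also included col-36, col-158 and col-185 of the cuticle pattern above, each under 5 FPKM in both libraries. Whole worms were extracted, so fewer cells of a type and less RNA per cell cannot be told apart.

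Germline and yolk genes differed less. The 5 vitellogenin genes, encoding yolk proteins made in the adult gut, had a median of 0.080 and summed to 1791 FPKM in N2 and 1911 in daf-2. Their range over genes was narrow: vit-2 was at 507 and 575 FPKM, vit-5 at 399 and 442, vit-6 at 727 and 733, vit-1 at 103 and 109, and vit-4 at 54.8 and 51.8. Of 34 oocyte and eggshell genes 0 passed 1 log2 unit, against 1.81% of all genes higher and 1.62% lower. Their median was -0.15, with summed levels of 1957 and 1880 FPKM and 0 genes listed at 0 in either library. The 39 germline proliferation and meiosis genes had a median of 0.0022.

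Few sperm genes passed the threshold apart from a pair of peptide families. The 30 major sperm protein genes, cytoskeletal proteins of the crawling sperm, had a median of -0.40 with 2 (6.67%) lower, against 1.62% of all genes, and summed to 405 FPKM in N2 and 319 in daf-2; their copies are near-identical and their separate values uncertain. The abundant member msp-40 was at 20.01 and 9.29 FPKM. In a second list of 83 sperm genes 13 (15.7%) were lower and 2 (2.41%) higher, against 1.62% and 1.81% of all genes, but all 13 lower genes belonged to nspb and nspc, nematode-specific peptide families placed on the list by name, with near-identical copies. Of 24 nspb and nspc genes 13 were lower and 1 higher, with a median of -1.03. The other 59 genes of that list, a split made after values were seen, had 0 lower, 1 higher and a median of -0.16. The lower gene with the highest N2 level among them, nspc-14, was at 17.7 FPKM in N2 and 6.86 in daf-2.

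At 15 °C, animals with and without daf-2(e1370) were also compared in the math-33 background. That pair of libraries shares none with daf-2 and N2, and genotype and culture cannot be told apart in either pair. Between daf-2; math-33 and math-33, 392 genes (2.66%) were higher and 502 (3.4%) lower. Of the 267 genes higher in daf-2 over N2, 37 (13.9%) were also higher there and 10 were lower, and their median difference was 0.25. Those 37 were 9.44% of the genes higher in that pair. Of the 239 lower genes, 31 (12.97%) were also lower and 10 higher, with a median of -0.078; they were 6.18% of the genes lower in that pair. Over all 14760 genes, the correlation of the differences was 0.13 (Pearson) and 0.12 (Spearman) as a description across genes. Stage-dependent lists differed more between daf-2; math-33 and math-33 than between daf-2 and N2. Their medians were -0.85 for oocyte and eggshell genes (11 of 34 lower), -0.79 for vitellogenins and -0.78 for major sperm proteins (7 of 30 lower), with 0 genes higher in each. Their part in the shares above was not tested.

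The DAF-16 activated targets past 1 log2 unit were mostly other ones in the math-33 background. Of the 36, 3 were higher and 1 lower between daf-2; math-33 and math-33, where 2.66% of all genes were higher and 3.4% lower, with a median of 0.27. The 3 were lys-7, scl-1 and djr-1.2, and lys-7, 2.49-fold higher there (2.196 to 2.83), was the only one also past 1 log2 unit in daf-2 against N2. Both ftn-1 and mtl-1 were similar in the pair, at folds of 0.797 (0.570 to 1.13) and 0.749 (0.421 to 1.31). In sip-1 the direction was opposite, with a fold of 0.351 (0.309 to 0.399). The difference in lea-1 was also below 1, at 0.534 (0.472 to 0.606). For each of these 4 genes the math-33 library itself was above N2 at 15 °C. Whether the 2 differences, each between single libraries, differ beyond the spread of replicate cultures was not tested.

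Genes higher in both backgrounds were led by Y39G8B.7, at 1.99 FPKM in N2 and 17.7 in daf-2, then at 0.665 in math-33 and 12.32 in daf-2; math-33. It was at 2.201 FPKM in daf-16; daf-2. Others were ins-35, col-176 and K02E7.6, the last, at 6.43 and 23.1 FPKM in N2 and daf-2 and 9.71 and 29.4 in math-33 and daf-2; math-33, and C54D10.10, at 12.7 and 43.7 and then 8.84 and 25.6. The lectin gene clec-61 was at 2.61 and 10.4 FPKM and then at 0.659 and 3.31. Among the genes lower in both, ZK813.7 was the most abundant, at 37.1 and 15.6 FPKM in N2 and daf-2 and 173 and 57.2 in math-33 and daf-2; math-33. The other 9 of the 10 named stayed under 10 FPKM in N2, nspc-10 among them at 9.27 and 0.376 and then 5.78 and 0.471.

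At 25 °C, again with separate libraries, 1243 genes (8.42%) were higher and 1177 (7.97%) lower in daf-2 than in N2. Of the 267 genes higher at 15 °C, 129 (48.3%) were also higher and 16 lower, with a median of 0.88; they made up 10.4% of the genes higher at 25 °C. Of the 89 that reached 10 FPKM at 15 °C, 62 (69.7%) were also higher, and the share among all genes of that level was not computed. Of the 239 lower genes, 73 (30.5%) were also lower and 14 higher, with a median of -0.46, and they made up 6.20% of the genes lower at 25 °C. The correlation across all genes was 0.31 (Pearson) and 0.27 (Spearman).

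The largest increases at 15 °C recurred at 25 °C. All 15 genes with the largest increases were also higher by at least 1 log2 unit at 25 °C, whereas 2 of them were also higher in the math-33 background and 2 were lower there. Of the 15 with the largest decreases, 8 were also lower at 25 °C and 1 higher. Both clec-209 and F56A4.2, which rest on the same reads, are counted among the 8. Of the 36 DAF-16 activated targets, 25 were higher and 1 lower at 25 °C with a median of 1.46, against 9, 0 and 0.49 at 15 °C. Fold differences of single targets were larger there: 192 for mtl-1 (101 to 421), 123.6 for tts-1 (111 to 139) and 29.7 for sod-3 (22.0 to 40.2). In lea-1 and sip-1 they were smaller, at 4.29 (4.04 to 4.55) and 2.79 (2.65 to 2.95), with N2 itself at 80.4 and 268 FPKM at 25 °C.

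**Figure D5:**
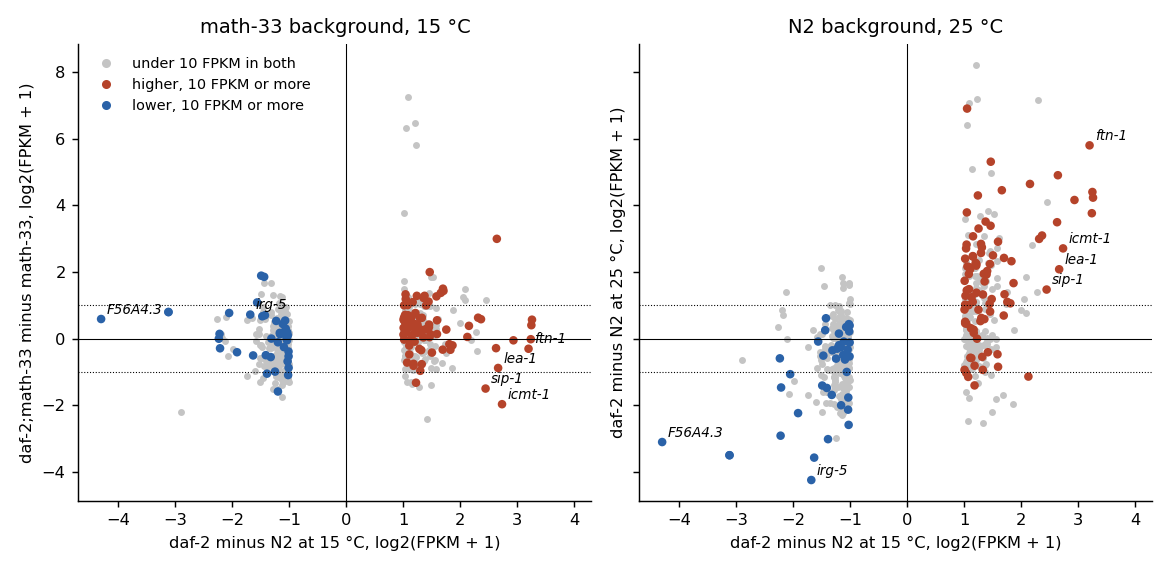
Differences of the 506 genes past 1 log2 unit between daf-2 and N2 at 15 °C (horizontal) against their differences between daf-2; math-33 and math-33 at 15 °C (left) and between daf-2 and N2 at 25 °C (right), in log2(FPKM + 1); red and blue mark higher and lower genes of 10 FPKM or more, grey the weaker ones. Most points lie between the dotted lines at 1 unit on the left, where 37 higher genes lie above the upper line, and 129 do so on the right.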

How the data were processed

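The authors deposited 1 table of FPKM values (fragments per kilobase, scaled to library size) for all 10 libraries, with coordinates on ce10. The submitters' processing notes name STAR, HOMER and edgeR; no source used here gives their roles, versions or counting settings. Values of rows of 300 to 1500 bases were whole multiples of 1 read within 0.01% in 100% of the low values tested, which gave 25.2 to 35.2 M reads per library and, at 1000 bases, a floor of 3 counts equal to 0.170 to 0.238 FPKM. Intervals on folds are exact 95% intervals of the read pairs so recovered. They and the floors cover counting error only.

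Of 47467 rows, 1104 had no gene name and held 1.72 to 1.97% of the summed FPKM. Each symbol was represented by its row of highest mean FPKM with at least 200 bases, and 14760 genes reaching 1 FPKM in 2 or more libraries were compared as log2(FPKM + 1) with a call at 1 log2 unit. With 1 library per group no test was run. Current names came from RefSeq, which matched 14546 genes (98.6%); its coordinates were not used. Calculations used Python 3.11.15, NumPy 2.4.6, pandas 2.3.3, SciPy 1.17.1 and Matplotlib 3.10.9, and were tested on simulated data.

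The genes compared and the 41 lists were chosen with earlier results of these data known. Named were the 15 largest differences each way, up to 4 members past 1 log2 unit in each list, the 10 each way with the largest smaller difference in daf-2 against N2 and in daf-2; math-33 against math-33, and fixed pathway genes. Other named genes, among them list members under 1 log2 unit and the 23 genes of the cuticle pattern, were chosen after their values were seen. The result for 1 pathway gene is not reported here.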

Additional observations from a re-analysis of the deposited data

Results flagged for a closer look

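In 7 named genes the difference between daf-2 and N2 at 15 °C had the opposite sign, by at least 1 log2 unit, in a pair of libraries that shares none with it. None of these differences between contrasts was tested, since each group has 1 library, and all values are in log2(FPKM + 1).

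In the math-33 background at 15 °C, sip-1 differed by -1.49 against 2.44 in daf-2 minus N2, and icmt-1 (F21F3.3) by -1.96 against 2.73. The S-adenosylmethionine synthetase gene sams-5 differed by -1.32 against 1.22. In these 3 genes the math-33 library was above N2, at 142.7, 23.3 and 28.9 FPKM against 61.6, 1.92 and 10.8. The gene dod-24 went the other way, with 1.89 in the math-33 background against -1.49, and the math-33 library, at 4.11 FPKM, was below N2, at 12.01.

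At 25 °C, col-137 differed by -1.13 against 2.12 at 15 °C, with 109 FPKM in N2 and 49.1 in daf-2. The sperm-list gene ssp-33 differed by -2.19 against 1.49, from 0.488 FPKM in N2 and 3.18 in daf-2 at 15 °C. C04A2.15 differed by 1.41 against -2.12, and rests on 1 read pair in daf-2 at 15 °C.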

How the results depend on the processing

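The numbers of genes past the threshold depended on how weakly expressed genes were treated. Reversal of sign was checked for the 98 genes named by rule, not for all genes past the threshold. No named gene past 1 log2 unit reversed with median centring, quantile normalisation or the longest row per gene. A change of pseudocount cannot reverse a sign. List medians close to 0 did change sign, 9 of them over 7 lists, all between -0.060 and 0.062. Where 5 FPKM in 2 libraries was required, this held for glutathione transferases (0.055 to -0.060), UDP-glucuronosyltransferases (0.030 to -0.0084) and nuclear hormone receptors (-0.0016 to 0.062). With a pseudocount of 0.1, 733 genes were higher and 913 lower; of these, 25.1% and 23.99% also passed in the math-33 background, and 42.3% of the higher genes at 25 °C. With a pseudocount of 5, 62 were higher and 23 lower; 74.2% and 43.5% also passed at 25 °C, and 4.35% of the lower genes in the math-33 background. Requiring 5 FPKM in 2 libraries gave 167 and 128 genes, with 59.9% and 44.5% at 25 °C and 18.8% of the lower genes in the math-33 background. Without a minimum row length 469 and 459 genes passed, with 37.95% of the higher genes at 25 °C. With 2 log2 units in every comparison 21 and 14 passed; 4.76% and 7.14% recurred in the math-33 background, and 71.4% of the higher genes at 25 °C. Requiring 10 FPKM in daf-2 or N2, chosen after seeing the data, left 89 and 40, with 69.7% and 42.5% at 25 °C and 7.5% of the lower genes in the math-33 background. The shares of all genes passing in the second pair were not computed at these settings. A larger or smaller share that recurs can therefore not be read as more or less recurrence than at the main setting. Counts were within 1.5 times of 267 and 239 without the level filter, with median centring, with quantile normalisation, with the longest row per gene, and with overlapping rows counted once. Of 88 named genes past 1 log2 unit, 45 remained at a pseudocount of 5 and 86 after quantile normalisation. All 88 remained at a pseudocount of 0.1, which had to be so, since a smaller pseudocount only enlarges a difference. No paired analysis was possible because each group has 1 library, and for the same reason no replicate could be left out. The planned count of a promoter element was not run, as no genome sequence was used here.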

Other observations

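The dauer-enriched list, which shares lea-1, sip-1, sod-3, hil-1 and tts-1 with the DAF-16 activated targets, held no further gene past 1 log2 unit among its 29 genes compared. Among 72 hedgehog-related and patched-related genes, cuticle-associated secreted proteins and their relatives, 3 (4.17%) were higher and 0 lower, against 1.81% and 1.62% of all genes: grl-27 was at 1.06 FPKM in N2 and 4.995 in daf-2, grd-15 at 1.16 and 3.36, and grl-23 at 0.077 and 1.29. Of the 16 heterochronic timing genes, 13 were below 0, with a median of -0.20.

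Counted over all 10 libraries, daf-2 at 15 °C was at least 2-fold above every other library in 6 genes, against 1 for N2 at 15 °C, 47 for daf-16; daf-2 at 15 °C and 262 for daf-2 at 25 °C. It was at least 2-fold below every other library in 279 genes, against 272 for daf-16; daf-2 and 165 for N2 at 15 °C, and 617 for math-33 at 25 °C; the other 6 libraries had 25 to 170.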
